A study of Mus musculus with 28 samples.

Results

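The effect of low-dose tropifexor on the liver of mice with nonalcoholic steatohepatitis (NASH, in which fat, inflammation and scarring build up) was set against the effect of obeticholic acid (OCA), gene by gene. Each effect is the log2 ratio of a treated group to its own vehicle group. The difference is the tropifexor effect minus the OCA effect, so a positive value means a higher ratio to vehicle under tropifexor. The ratio was taken for every gene from the FPKM values (fragment counts scaled by gene length and library size) of the authors' deposited tables. A finite difference existed for 22804 of 47719 listed genes, and 15310 of these had a usable test in both tables. The comparison rests on 16 of the 28 mice of the series, in 4 groups of 4: low-dose tropifexor (LJN452_low) and its vehicle (VEH_LJN452), then OCA and its vehicle (VEH_OCA). All were male C57BL/6 mice, about 6 weeks old at the start, kept for 26 weeks on a diet whose fat supplied 40% of calories and which also held 22% fructose and 2% cholesterol, then dosed by mouth once a day for 4 weeks. Low-dose tropifexor was 0.1 mg/kg, if low, mid and high follow the rising order of the 3 doses, a pairing that no label states, and OCA was 25 mg/kg. The doses of the 2 compounds were therefore not matched, and the 1 pair of compounds is compared as these 2 regimens. The treatment field of the vehicle mice lists a drug while their titles name vehicle; the titles were followed.

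Both compounds are agonists of FXR (gene Nr1h4), the nuclear receptor that senses bile acids in liver and gut. Active FXR pairs with RXR on DNA, raises transporters that move bile acids out of hepatocytes, and induces SHP (Nr0b2), a repressor of the enzymes that make bile acids from cholesterol. OCA is a semisynthetic derivative of the bile acid chenodeoxycholic acid, whereas tropifexor has no bile acid skeleton.

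The authors' deposited tables hold 1 value per group, so no spread over mice can be drawn and overlap of groups cannot be seen; the depth of each library is unknown. An effect was called where the authors' deposited table gave a q under 0.05. The standard error (SE) of an effect came from its test statistic, rescaled to the deposited p, and the variances of the 2 effects, which share no mice, were added. A difference was called at a Benjamini-Hochberg adjusted p under 0.05 over the 15310 genes, and brackets below give normal 95% intervals. The median SE of an effect was 0.307 (log2) for low-dose tropifexor and 0.221 for OCA. Hepatocyte markers were abundant in all 4 groups: albumin (Alb) was at 37106 FPKM with low-dose tropifexor and 35384 in its vehicle, and at 45639 with OCA and 37120 in its vehicle, per the authors' deposited tables. Another marker, Ttr, was at 1754 FPKM with low-dose tropifexor and 3888 in its vehicle, a called fall. It was at 3585 FPKM with OCA and 3629 in its vehicle. Under tropifexor Apob was also below its vehicle level, while Apoa1, Ahsg and Hnf4a were above theirs. The pancreas markers Prss2, Cela2a, Cpa1 and Pnlip reached at most 0.255 FPKM in the 4 groups, and the adipose markers Adipoq, Lep and Plin1 at most 0.167 FPKM. Other genes of these lists were higher. Cela1, of the pancreas list, was at 9.16 FPKM with low-dose tropifexor and 8.91 in its vehicle, and at 6.94 with OCA and 7.73 in its vehicle, by the authors' deposited tables. The adipose list, with Cfd, Fabp4 and Pparg, summed to 29.6 FPKM with low-dose tropifexor and 88.5 in its vehicle, and to 35.7 with OCA and 83.4 in its vehicle, by the same tables.

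Low-dose tropifexor changed 1710 genes (11.2% of those tested), 880 of them upward (5.75%) and 830 downward (5.42%). OCA changed 626 genes (4.09%), 281 upward (1.84%) and 345 downward (2.25%). The effects of the 2 drugs differed at 802 genes (5.24%), with 413 differences positive (2.7%) and 389 negative (2.54%). Of these 802 genes, 519 had an effect called for tropifexor alone, 66 for OCA alone, 135 for both and 82 for neither. The count of differences depends on the error: with the SE taken from the test statistic without rescaling, 64 were called (0.418%), 35 positive and 29 negative. Of the called genes named below, those that kept their call with that error were A4gnt, Abcc4, Akr1b7, Cbr3, Cyp26a1, Cyp2a4, Cyp2b9, Cyp2c29, Cyp8b1, Fgf21, H19, Irg1, Lnpep, Lpcat4, Mmp7, Mup17, Onecut1, Osgin1, Ptgds, Serpina4-ps1, Slc4a9, Slco1a1, Sqle, Tff3, Trib3 and, named last, Cyp17a1 and Arid5b. The other called genes named lost it. The median difference over all tested genes was 0.0071 (log2).

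The 2 drugs shared part of their response. Both changed 292 genes in the same direction, 171 upward and 121 downward, which is 17.1% of the tropifexor calls and 46.6% of the OCA calls. Within the 292, the effect was larger under tropifexor at 276, and the difference was called at 111, of which 110 were larger under tropifexor and 1 under OCA. A call needs a larger effect where the SE is larger, and the median SE was 0.307 for tropifexor and 0.221 for OCA. The choice of genes called for both drugs can therefore favour larger tropifexor effects. Of the 626 genes called for OCA, 486 had a tropifexor effect of the same sign, with a median size of 0.90 (log2) under tropifexor and 0.72 under OCA. Of the 1710 called for tropifexor, 1342 had an OCA effect of the same sign, with median sizes of 1.04 under tropifexor and 0.29 under OCA. Each set was chosen by the call of 1 drug, which favours a larger size under that drug. Across all 15310 genes the 2 effects had a Spearman rho of 0.265, and of 0.307 over the 12219 genes that reached 1 FPKM in each table. Pearson's r, which weights extreme genes more, was 0.0015 and -0.0079 over the same sets. At 28 of the 15310 genes an effect exceeded 10 (log2) in size, and none of these had a called difference. Their part in Pearson's r was not tested. Genes are not independent replicates, so rho is given as a description.

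**Figure D1:**
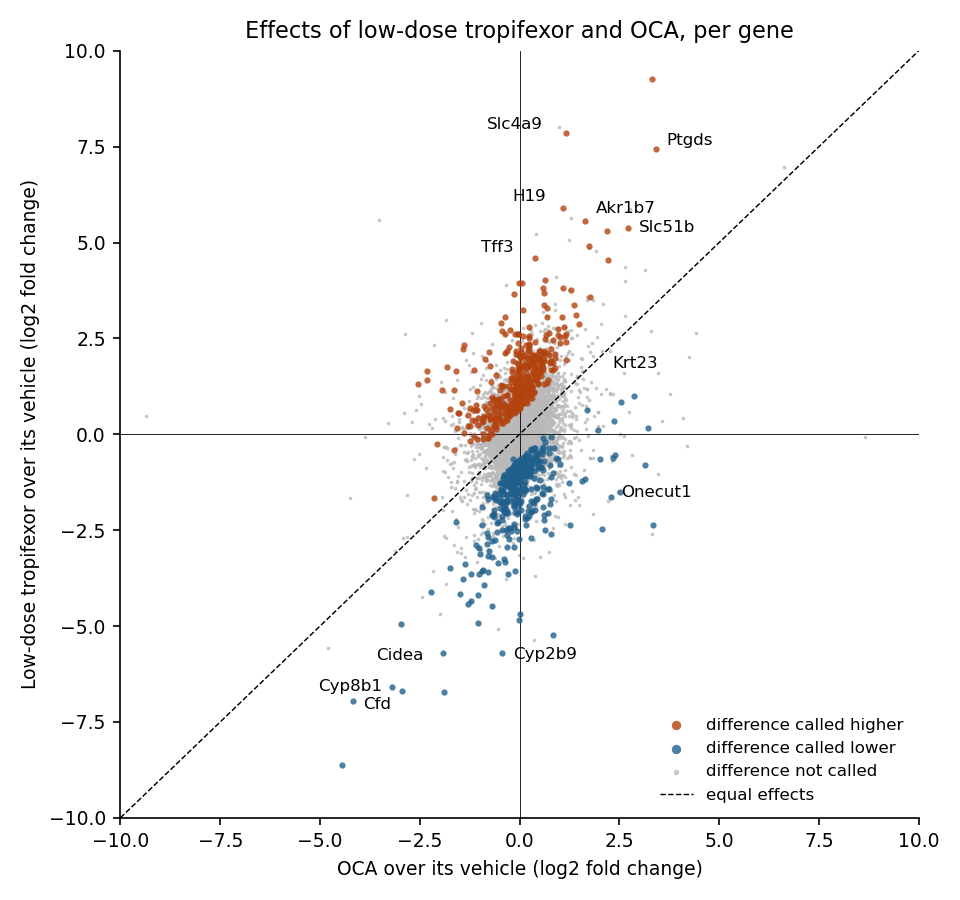
Effect of low-dose tropifexor (vertical) against effect of OCA (horizontal), each as log2 of treated over own vehicle, 1 point per gene. Of the 15310 tested genes 15282 lie within the axes; orange and blue mark the 413 positive and 389 negative differences, most of them steeper on the tropifexor axis than on the OCA axis.

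Slc51b, Nr0b2, Akr1b7 and Nr1i2, all induced by FXR, rose under both drugs and rose further under low-dose tropifexor. Of 19 tested FXR-induced entries (Apoc2 is listed under 2 IDs), 6 rose and 2 fell under tropifexor, 4 rose under OCA, and 5 differences were called, all positive, with a median difference of 0.19. Slc51b, the beta subunit of the basolateral bile acid exporter OST (chr9:65412714-65422955, minus strand, GRCm38), had 150 FPKM with low-dose tropifexor and 3.60 in its vehicle, against 24.6 with OCA and 3.73 in its vehicle, by the authors' deposited tables. The vehicle levels were close and the drug levels were not, so its 41.7-fold rise under tropifexor and 6.59-fold rise under OCA differed by 2.66 ± 0.386 (log2, SE). Slc51b overlaps Rasl12 on the other strand, and no source used here says whether reads were counted by strand. Nr0b2, which encodes SHP, had 118 FPKM with low-dose tropifexor and 32.4 in its vehicle, and 73.3 with OCA and 43.4 in its vehicle (the authors' deposited tables). It rose under both drugs, by 1.87 under tropifexor and 0.75 under OCA, and the difference was 1.11 [0.69 to 1.54]. Akr1b7, an aldo-keto reductase induced by FXR in mice, rose 46.9-fold under tropifexor and 3.13-fold under OCA. Nr1i2, which encodes the xenobiotic receptor PXR, rose by 1.53 and 0.40 (log2) under tropifexor and OCA, a difference of 1.13 ± 0.214.

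Abcb11, the bile salt export pump and a classic FXR target, was not called in either effect or in the difference. Its level was 308 FPKM with low-dose tropifexor and 165 in its vehicle, and 253 with OCA and 149 in its vehicle, by the authors' deposited tables. The effects were 0.90 under tropifexor and 0.76 under OCA, and the difference of 0.14 had an interval from -0.82 to 1.11, wide enough to hold a difference of either sign. Its promoter is shown because it carries the inverted repeat that FXR is known to bind. The 250 bases before the gene's start are printed 5′ to 3′ on the minus strand (chr2:69342617-69342866, RefSeq, GRCm38.p6), with the match to GGNCA and TGNCC, 1 base apart, in capitals 62 bases before the start:
Abcb11: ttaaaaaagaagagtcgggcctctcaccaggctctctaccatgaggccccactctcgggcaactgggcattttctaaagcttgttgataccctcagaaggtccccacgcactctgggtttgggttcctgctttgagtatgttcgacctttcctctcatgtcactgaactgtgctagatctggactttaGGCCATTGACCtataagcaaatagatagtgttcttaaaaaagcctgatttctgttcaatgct
The same letters, on either strand, occur in 0.575% of 32851 RefSeq promoters of that length. They occur in 2 of the 279 promoters matched to positive differences, in 1 of the 250 matched to negative ones, and in 80 of 10472 matched to tested genes.

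Among 9 tested regulators of the circuit, 4 differences were above 0 and 5 below, of which 2 positive and 1 negative were called. Nr1h4, the receptor itself, fell under tropifexor by 1.49 (log2), while its OCA effect was -0.16, and the difference was -1.34 ± 0.214. In the authors' deposited tables its level was 23.8 FPKM with low-dose tropifexor and 66.8 in its vehicle, and 53.1 with OCA and 59.1 in its vehicle. Maff, a small Maf repressor partner, rose under both drugs, and its difference was 0.88 ± 0.242. Mafg, the relative that represses bile acid synthesis genes in mice, rose under tropifexor by 1.16 and had an OCA effect of 0.34. That difference, 0.82 [-0.26 to 1.90], was not called, and Mafg overlaps Sirt7 on the same strand.

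Enzymes of bile acid synthesis fell further under low-dose tropifexor at the 2 steps FXR is best known to repress. Of 15 tested genes, 2 rose and 7 fell under tropifexor, 2 rose and 3 fell under OCA, and 3 differences were called, all negative, with a median of -0.50. Cyp7a1, the rate-limiting enzyme of the classical pathway (chr4:6265612-6275633), had 3.02 FPKM with low-dose tropifexor and 54.6 in its vehicle, against 16.3 with OCA and 45.8 in its vehicle, in the authors' deposited tables. It fell under both drugs, and the difference was -2.68 ± 0.658. Cyp8b1, the sterol 12-alpha-hydroxylase that sets the share of cholic acid (chr9:121914356-121916305), had 0.969 FPKM with low-dose tropifexor and 99.5 in its vehicle, and 8.76 with OCA and 67.9 in its vehicle, by the authors' deposited tables. Its level was thus 103-fold lower under tropifexor and 7.75-fold lower under OCA, a difference of -3.73 [-4.36 to -3.10]. Cyp46a1, a cholesterol 24-hydroxylase, fell by 2.44 under tropifexor with an OCA effect of -0.23, and its difference was -2.20 ± 0.338. Cyp7b1, the oxysterol hydroxylase of the alternative pathway, fell under both drugs, by 1.51 under tropifexor and 1.01 under OCA, and the difference of -0.50 [-0.98 to -0.02] was not called.

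Slc10a1 and Slco1a1, bile acid uptake carriers, fell and 4 exporters rose under low-dose tropifexor. Of 6 uptake genes, 2 fell under tropifexor and 1 under OCA, and both called differences were negative. Slc10a1, which encodes the sodium-dependent carrier NTCP, had 89.0 FPKM with low-dose tropifexor and 257 in its vehicle, and 266 with OCA and 278 in its vehicle, per the authors' deposited tables. Only the tropifexor group stood apart from the other 3 groups, and the difference was -1.47 ± 0.267. Slco1a1, an organic anion carrier that is male-biased in mice, fell under both drugs, by 4.48 under tropifexor and 0.69 under OCA, a difference of -3.79 ± 0.312. Slco1b2, the abundant sinusoidal organic anion carrier, had 307 FPKM with low-dose tropifexor and 440.2 in its vehicle, and 427 with OCA and 397 in its vehicle, in the authors' deposited tables. It was called in neither effect nor in the difference of -0.63 ± 0.377. Of 7 export genes, 4 rose under tropifexor and 1 rose and 1 fell under OCA. The differences were above 0 at 6 and below 0 at 1, and 2 were called, both positive. Besides Slc51b this was Abcc4, a basolateral efflux pump, which rose by 1.97 under tropifexor and fell by 0.86 under OCA, a difference of 2.83 ± 0.289. Abcb4, the phospholipid flippase of bile, rose by 0.73 under tropifexor with an OCA effect of 0.05, and its difference of 0.68 [0.14 to 1.21] was not called.

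**Figure D2:**
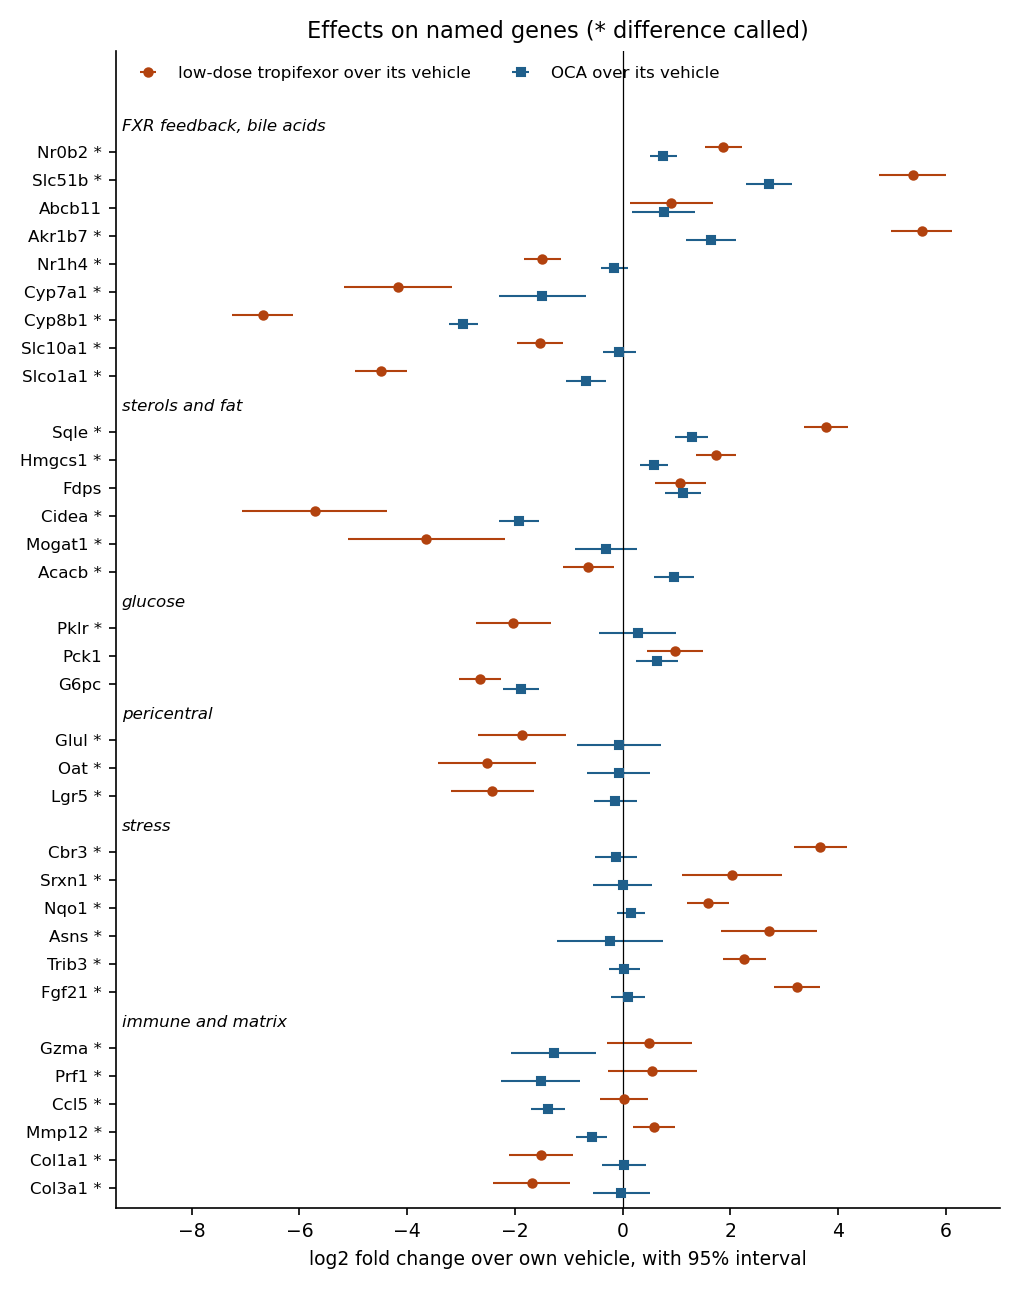
Effect of low-dose tropifexor (orange circles) and of OCA (blue squares) on genes of the groups described, each as log2 of treated over own vehicle with its 95% interval from the rescaled SE; an asterisk marks a called difference. The intervals of Slc51b, Cyp8b1 and Sqle lie apart on the same side of 0, while those of Abcb11, Fdps and Pck1 overlap.

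Many genes of cholesterol synthesis rose under both drugs, and some rose further under low-dose tropifexor. Of 23 tested, 15 rose under tropifexor and 9 under OCA, none fell under either, and 6 differences were called, all positive. The median effect was 1.20 (log2) under tropifexor and 0.63 under OCA, and the median difference was 0.66. Sqle, the squalene epoxidase (chr15:59315077-59331192), had 26.3 FPKM with low-dose tropifexor and 1.93 in its vehicle, and 3.34 with OCA and 1.38 in its vehicle, in the authors' deposited tables. It rose 13.7-fold under tropifexor and 2.43-fold under OCA, a difference of 2.49 ± 0.261. Msmo1, a sterol demethylase, rose by 2.38 under tropifexor and 1.01 under OCA, and its difference was 1.37 ± 0.334. Cyp51, the lanosterol demethylase, rose by 2.29 under tropifexor, but its difference of 1.35 [0.25 to 2.46] was not called, and it overlaps Akap9.

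Hmgcs1, an early synthase of the pathway and a gene named here after its values were seen, had 110 FPKM with low-dose tropifexor and 32.9 in its vehicle, and 40.0 with OCA and 26.6 in its vehicle (the authors' deposited tables). Its difference was 1.15 ± 0.232. Its promoter is shown because it holds a match to TCACNCCAC, a form of the element read by the sterol-sensing factor SREBP, in capitals 137 bases before the start (plus strand, chr13:119690101-119690350, RefSeq, GRCm38.p6):
Hmgcs1: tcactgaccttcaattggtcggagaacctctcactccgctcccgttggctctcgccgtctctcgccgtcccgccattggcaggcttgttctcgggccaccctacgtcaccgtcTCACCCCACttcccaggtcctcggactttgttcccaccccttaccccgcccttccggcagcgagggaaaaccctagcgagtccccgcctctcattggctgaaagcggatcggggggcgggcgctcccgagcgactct
These letters occur on either strand in 1.05% of all 32851 promoters and in 138 of 10472 promoters of tested genes. They occur in 4 of 279 for positive differences and in 3 of 250 for negative ones. Cholesterol efflux genes showed no called difference among 12 tested, the widest being Scarb1, the high-density lipoprotein receptor, at 0.56 [-0.23 to 1.35].

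Among genes of fat synthesis and storage, Cidea, Mogat1, Vldlr and Acacb were set lower by low-dose tropifexor than by OCA, each relative to vehicle. The fatty acid synthesis list had 16 tested genes, of which 1 rose and 6 fell under tropifexor, whereas 3 rose and none fell under OCA; 1 called difference was positive and 3 were negative, and the median of all 16 was -0.66, or -1.21 between treated livers through lean control. Acacb, the acetyl-CoA carboxylase that restrains fat burning, was among the genes called in opposite directions. It fell by 0.63 under tropifexor and rose by 0.95 under OCA, a difference of -1.59 ± 0.310. Srebf1, the master regulator of fat synthesis, had 99.5 FPKM with low-dose tropifexor and 391 in its vehicle, and 425 with OCA and 674 in its vehicle, in the authors' deposited tables. It fell by 1.97 under tropifexor, and the difference of -1.31 [-2.52 to -0.09] was not called. Srebf1 overlaps Rai1. Scd1, the stearoyl-CoA desaturase, stood at 467 FPKM with low-dose tropifexor and 6412 in its vehicle, and 3709.8 with OCA and 4713 in its vehicle, by the authors' deposited tables. The level with tropifexor was by far the lowest of the 4, but its SE was wide and neither the effect nor the difference of -3.44 [-6.12 to -0.75] was called. The deposited p of the tropifexor effect implies a still larger SE for Scd1, so this interval is narrower than that p allows.

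Of 16 lipid droplet genes, 2 rose and 6 fell under tropifexor and 3 fell under OCA, and all 4 called differences were negative. Cidea, a protein that fuses lipid droplets, had 0.448 FPKM with low-dose tropifexor and 23.5 in its vehicle, against 4.15 with OCA and 15.7 in its vehicle, per the authors' deposited tables. It fell 52.5-fold under tropifexor and 3.79-fold under OCA, a difference of -3.79 ± 0.712. Mogat1, a monoacylglycerol acyltransferase raised in fatty liver, fell by 3.64 under tropifexor with an OCA effect of -0.30, a difference of -3.34 ± 0.795. Vldlr, a lipoprotein receptor, fell by 2.67 under tropifexor and had a difference of -1.88 ± 0.611. Among 22 genes of fatty acid oxidation, 2 rose and 8 fell under tropifexor and 2 fell under OCA, with 1 positive and 2 negative called differences. The negative ones were Acot1, an acyl-CoA thioesterase, at -1.05 ± 0.298, and Cyp4a10, a fatty acid hydroxylase, at -0.97 ± 0.233; both are targets of PPAR alpha. The positive one was Fgf21.

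Fgf21, a hepatic hormone of fasting and stress (chr7:45613886-45615490), had 53.2 FPKM with low-dose tropifexor and 5.64 in its vehicle, and 6.96 with OCA and 6.52 in its vehicle, in the authors' deposited tables. The tropifexor group alone was high, and the difference was 3.15 ± 0.274. Of 18 stress response genes, which include Fgf21, 5 rose and 3 fell under tropifexor and 1 rose and 4 fell under OCA, with 5 called differences positive and 1 negative. Asns, the asparagine synthetase, rose 6.58-fold under tropifexor and was at 0.850 of vehicle under OCA, a difference of 2.95 ± 0.681. Trib3, a pseudokinase induced by amino acid shortage, had 25.0 FPKM with low-dose tropifexor and 5.22 in its vehicle, and 5.51 with OCA and 5.40 in its vehicle, by the authors' deposited tables. The difference was 2.23 ± 0.249. Atf3, a stress-induced transcription factor, rose under both drugs, by 1.98 under tropifexor and 0.50 under OCA, and the difference was 1.48 ± 0.280.

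The promoters of Fgf21 and Atf3 are shown because both hold TTGCATCA, the reverse complement of TGATGCAA, a form of the amino acid response element read by the stress factor ATF4. The 250 bases before each start are printed on the minus strand (chr7:45615491-45615740 and chr1:191183334-191183583, RefSeq, GRCm38.p6), with the match in capitals 139 and 110 bases before the start:
Fgf21: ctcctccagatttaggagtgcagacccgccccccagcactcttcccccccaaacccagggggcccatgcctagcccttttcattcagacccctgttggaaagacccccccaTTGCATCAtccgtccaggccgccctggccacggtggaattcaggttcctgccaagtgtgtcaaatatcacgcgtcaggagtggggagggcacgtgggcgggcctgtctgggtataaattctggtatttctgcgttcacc
Atf3: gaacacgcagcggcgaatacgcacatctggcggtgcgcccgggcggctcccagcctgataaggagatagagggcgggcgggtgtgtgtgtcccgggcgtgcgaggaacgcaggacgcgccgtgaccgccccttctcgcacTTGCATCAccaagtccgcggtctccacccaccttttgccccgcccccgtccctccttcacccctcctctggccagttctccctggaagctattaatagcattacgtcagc
These letters occur on either strand in 0.791% of all 32851 promoters and in 74 of 10472 promoters of tested genes. They occur in 6 of the 279 promoters of positive differences and in 6 of the 250 of negative ones.

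Pklr, Fbp1 and Pygl, genes of glucose handling, fell under low-dose tropifexor and were not called under OCA. Of 12 tested, 2 rose and 5 fell under tropifexor, 1 rose and 1 fell under OCA, and 1 called difference was positive and 4 were negative. Pklr, the liver pyruvate kinase, had a difference of -2.31 ± 0.509 and overlaps Hcn3 on the other strand. Fbp1, a gluconeogenic phosphatase, and Pygl, the liver glycogen phosphorylase, had differences of -1.19 ± 0.307 and -1.16 ± 0.350. At other steps both effects were called the same way: G6pc, the catalytic subunit of glucose-6-phosphatase, fell by 2.65 under tropifexor and 1.89 under OCA. Pck1, the carboxykinase of gluconeogenesis, rose by 0.97 under tropifexor and 0.65 under OCA. Neither difference was called, at -0.76 [-1.28 to -0.25] for G6pc and 0.33 [-0.33 to 0.98] for Pck1.

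Most genes of pericentral hepatocytes, the cells around the central vein, fell under low-dose tropifexor, and none was called under OCA. Of 12 tested, 8 fell under tropifexor, all 12 differences were below 0, and 5 were called. The median effect was -1.57 under tropifexor and -0.16 under OCA. Oat, the ornithine aminotransferase, had 69.7 FPKM with low-dose tropifexor and 399 in its vehicle, and 318 with OCA and 335 in its vehicle, in the authors' deposited tables; it overlaps Fgfr2 on the same strand. Its difference was -2.44 ± 0.551. Slc1a2, a glutamate carrier, and Lgr5, a receptor that amplifies Wnt signals, had differences of -2.31 ± 0.534 and -2.28 ± 0.442. Glul, the glutamine synthetase of the innermost cell layer and named after its values were seen, was at -1.79 ± 0.577. In whole liver, fewer cells of a type and less RNA per cell cannot be told apart. Of 12 urea cycle and periportal genes, 2 rose under tropifexor and 5 under OCA, and no difference was called; the widest was Sds, the serine dehydratase, at -1.09 [-1.85 to -0.34].

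Many male-biased liver genes fell under low-dose tropifexor. Of 19 tested growth hormone and male-biased genes, 2 rose and 11 fell under tropifexor and 3 rose and 5 fell under OCA, with 1 positive and 8 negative called differences and a median of -0.86 over the list, which was -0.54 with a pseudocount of 1 FPKM. Mup3, a major urinary protein, had 414 FPKM with low-dose tropifexor and 4129.6 in its vehicle, against 2834 with OCA and 3621 in its vehicle, in the authors' deposited tables, and its difference was -2.97 ± 0.449. Mup11 fell 394-fold under tropifexor and 22.0-fold under OCA, and Mup17 fell 96.5-fold and 9.19-fold in the same order. Mup genes are near-identical copies among which reads can be split, so single members are uncertain. Cish, a feedback inhibitor of growth hormone signalling, had a difference of -2.96 ± 0.608. It was at 11.5 FPKM with low-dose tropifexor and 17.6 in its vehicle, but 14.6 with OCA and 2.89 in its vehicle, by the authors' deposited tables. The low value was the OCA vehicle. Set through lean control, the vehicle groups differed by 2.5 (tropifexor vehicle minus OCA vehicle, log2) while the treated livers differed by -0.46 (tropifexor minus OCA), which was not called.

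Female-biased genes split. Of 9 tested, 3 rose and 2 fell under tropifexor and 3 rose under OCA, with 2 positive and 3 negative called differences. Cyp2a4, a steroid hydroxylase, rose by 4.02 under tropifexor with an OCA effect of 0.64, a difference of 3.38 ± 0.385. Cyp2b9, another female-biased P450, fell by 5.71 under tropifexor with an OCA effect of -0.43. Its difference was -5.27 ± 0.418, with a vehicle group difference of -1.65 that was itself called. Cyp2b13 had a difference of -4.83 ± 1.05 with neither effect called, and lost the call with a wider error, the larger of the rescaled SE and the SE implied by the gene's deposited p. Members of the Cyp2 family share sequence, so reads may be split among them.

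Genes of antioxidant defence, among them Cbr3, Osgin1 and Nqo1, rose under low-dose tropifexor beyond their OCA effect. Of 37 antioxidant genes, 12 rose and 2 fell under tropifexor and 5 rose and 3 fell under OCA, and 11 differences were called, all positive, with a median of 0.44. Cbr3, a carbonyl reductase, had 28.6 FPKM with low-dose tropifexor and 2.25 in its vehicle, and 1.80 with OCA and 1.97 in its vehicle, in the authors' deposited tables. The difference was 3.80 ± 0.319. Osgin1, an oxidative stress-induced growth inhibitor, had 697 FPKM with low-dose tropifexor and 118 in its vehicle, and 124 with OCA and 105 in its vehicle (the authors' deposited tables), a difference of 2.31 ± 0.303. Nqo1, the quinone reductase used as a readout of the antioxidant factor NRF2, rose 3.0-fold under tropifexor and was at 1.12 of vehicle under OCA, a difference of 1.42 ± 0.238. Srxn1, the sulfiredoxin and another gene named after its values were seen, was at 2.03 ± 0.550. Gpx2, an epithelial glutathione peroxidase, had the largest tropifexor effect of the list at 4.78, but neither that effect nor its difference of 2.87 [-0.68 to 6.42] was called. Of 19 xenobiotic genes, 2 differences were called positive and 3 negative. Cyp2c29 fell by 4.20 under tropifexor and 1.05 under OCA, a difference of -3.15 ± 0.286, and here too the vehicle groups differed, by -1.16.

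Of 14 tested genes of T cells and NK cells, 7 fell under OCA and none was called under low-dose tropifexor. All 14 differences were above 0 and 5 were called. The median effect was 0.30 under tropifexor and -1.08 under OCA, and the median difference was 1.27, or 0.50 with a pseudocount of 1 FPKM. Prf1, the pore-forming perforin, had 0.268 FPKM with low-dose tropifexor and 0.183 in its vehicle, and 0.116 with OCA and 0.333 in its vehicle, in the authors' deposited tables. Its difference was 2.06 ± 0.563. Gzmb, a granzyme, and Cd3d, a T cell receptor subunit, had differences of 1.73 ± 0.456 and 1.71 ± 0.494. These levels are low, and the summed list was at 18.6 FPKM with low-dose tropifexor and 15.3 in its vehicle, and 10.9 with OCA and 20.5 in its vehicle, by the authors' deposited tables. The tropifexor vehicle was lower than the OCA vehicle over this list: the median vehicle difference through lean control was -0.54 and the median difference of treated livers was 0.57. The part of the starting levels in the result was not tested.

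In other inflammatory lists most called differences were also positive. Of 24 inflammatory mediators, 3 rose under tropifexor, 1 rose and 5 fell under OCA, and 4 differences were called, all positive. Ccl5, a T cell attractant, fell by 1.39 under OCA with a tropifexor effect of 0.03, a difference of 1.42 ± 0.279. Ccl4, a macrophage chemokine, had a difference of 1.27 ± 0.391. For both, the OCA vehicle was the higher vehicle in the authors' deposited tables. It was at 37.1 FPKM for Ccl5 and 3.63 for Ccl4, against 23.1 and 2.70 in the tropifexor vehicle. Neither gene was called between treated livers through lean control. Ccl2, the main monocyte attractant, rose by 0.88 under tropifexor with an OCA effect of 0.03, and the difference of 0.85 [0.28 to 1.41] was not called. Of 21 macrophage genes, 3 rose and 1 fell under tropifexor, 1 rose and 6 fell under OCA, and 4 differences were called, all positive. Mmp12, the macrophage elastase, rose by 0.58 under tropifexor and fell by 0.58 under OCA, a difference of 1.16 ± 0.243. Adgre1, which encodes the macrophage marker F4/80, fell by 0.78 under OCA with a tropifexor effect of -0.11; its difference of 0.68 ± 0.220 was lost with the wider error. Among 11 Kupffer cell genes, 3 fell under tropifexor and 6 under OCA, with 2 called differences positive and 1 negative. The negative one was Cd163, a haemoglobin scavenger receptor, at -2.85 ± 0.448.

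Interferon-induced genes such as Rsad2 and Mx1 rose under low-dose tropifexor. Of 22 tested interferon and antigen presentation genes, 8 rose under tropifexor, 2 rose and 4 fell under OCA, and 5 differences were called, all positive. Rsad2, the antiviral protein viperin, had 15.3 FPKM with low-dose tropifexor and 4.68 in its vehicle, and 2.49 with OCA and 2.83 in its vehicle, per the authors' deposited tables. Its difference was 1.89 ± 0.383. Gbp2, a guanylate-binding protein, rose by 0.82 under tropifexor and fell by 0.73 under OCA, a difference of 1.56 ± 0.228. Of 8 tested B cell genes, 3 differences were above 0 and 5 below, and 2 were called. These were Ighm, the IgM heavy chain, and Jchain, the joining chain of secreted antibody, at -1.29 ± 0.246 and -1.38 ± 0.386. The B cell markers Pax5 and Ms4a1 were at 2.04 ± 1.24 and 0.96 ± 0.463, neither of them called. Among 4 tested neutrophil genes, 3 differences were above 0 and 1 below. Only that of S100a8 was called, at 1.44 ± 0.418, with neither of its effects called. The median vehicle difference of this list was -0.76 (log2, through lean control). Of 21 acute phase genes, 1 rose and 3 fell under tropifexor and 3 fell under OCA, with 2 differences called in each direction. Saa2 and Saa3, serum amyloid genes that share sequence, had differences of -1.28 ± 0.299 and 0.96 ± 0.293, and their vehicle groups differed by 0.79 and -0.86.

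**Figure D3:**
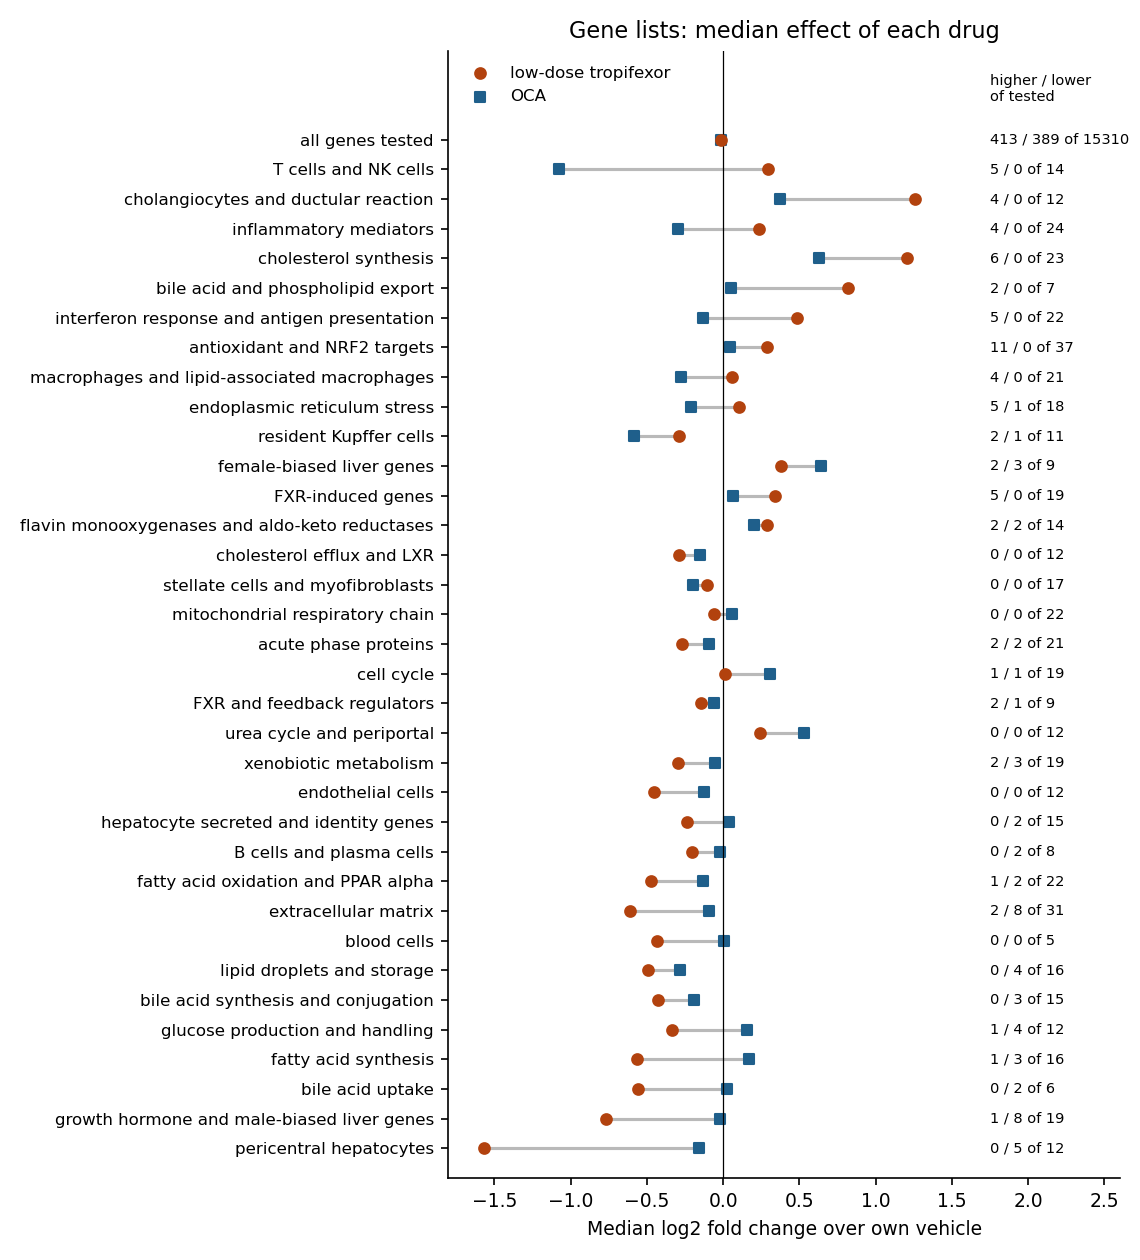
Median effect of low-dose tropifexor (orange circles) and of OCA (blue squares) over the tested members of each gene list, as log2 of treated over own vehicle, with the called differences at the right. The pericentral list lies at -1.57 under tropifexor and -0.16 under OCA, and the T cell and NK cell list at 0.30 and -1.08; all genes tested lie at -0.011 and -0.012.

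Fibrillar collagen genes fell under low-dose tropifexor, and their differences from the OCA effect were called. Of 31 extracellular matrix genes, 3 rose and 13 fell under tropifexor and 2 rose and 1 fell under OCA, with 2 positive and 8 negative called differences. Col1a1, the main chain of scar collagen (chr11:94936224-94953042), had 5.23 FPKM with low-dose tropifexor and 14.98 in its vehicle, and 10.3 with OCA and 10.2 in its vehicle, by the authors' deposited tables. It fell 2.86-fold under tropifexor and was at 1.02 of vehicle under OCA, a difference of -1.54 ± 0.371. Col3a1, which co-assembles with it, had 29.1 FPKM with low-dose tropifexor and 93.7 in its vehicle, and 63.0 with OCA and 64.2 in its vehicle (the authors' deposited tables). Its difference was -1.66 ± 0.453. The tropifexor vehicle stood above the OCA vehicle for both collagens, by 0.45 and 0.44 (log2, through lean control), and the treated livers differed by -1.09 ± 0.405 and -1.23 ± 0.408, neither of them called. Timp1, an inhibitor of matrix proteases, had effects of -0.23 under tropifexor and -0.19 under OCA, but its SE was so wide that the difference lay anywhere from -2.25 to 2.17, and it overlaps Syn1. Of 17 stellate cell and myofibroblast genes, 1 rose and 4 fell under tropifexor and none was called under OCA or in the difference. Acta2, the smooth muscle actin of myofibroblasts, fell by 0.86 under tropifexor, with a difference of -0.65 [-1.20 to -0.11].

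Most bile duct genes rose under low-dose tropifexor. Of 12 tested cholangiocyte and ductular genes, 9 rose under tropifexor and 2 under OCA, all 12 differences were above 0, and 4 were called. The median effect was 1.26 under tropifexor and 0.37 under OCA. Tff3, a trefoil peptide of mucous epithelia, had 50.6 FPKM with low-dose tropifexor and 2.10 in its vehicle, and 2.78 with OCA and 2.11 in its vehicle, in the authors' deposited tables. Its difference was 4.20 ± 0.421. Prom1, a progenitor cell surface protein, and Sox9, a transcription factor of duct and progenitor cells, had differences of 2.00 ± 0.483 and 1.33 ± 0.259.

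The share of called differences varied among the remaining lists, against 5.24% over all tested genes. It was 10.5% for cell cycle genes, 13.3% for hepatocyte genes and 66.7% for the 3 adipose genes tested. For flavin monooxygenase and aldo-keto reductase genes it was 28.6%. None of 12 endothelial, 22 respiratory chain, 5 blood or 2 tested pancreas genes was called. Of 19 cell cycle genes, Ccnd1, the G1 cyclin, was called upward at 1.11 ± 0.346 and Rrm2, a subunit of ribonucleotide reductase, downward at -1.14 ± 0.307. Of 15 hepatocyte genes, Cebpa and Foxa2, both liver transcription factors, were called at -1.08 ± 0.237 and -0.91 ± 0.232. For Foxa2 neither drug effect was itself called. Of the 3 adipose genes tested, Cfd, the complement factor D, fell 124-fold under tropifexor and 18.1-fold under OCA, a difference of -2.77 ± 0.507, and Pparg, the fat-cell nuclear receptor, was at -0.89 ± 0.245. Of 14 flavin monooxygenase and aldo-keto reductase genes, 2 differences were called in each direction; Akr1c14 was at -0.94 ± 0.309.

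Among the largest positive differences, Slc4a9 was near 0 in both vehicle groups, while Ptgds and H19 were above 1 FPKM there. Slc4a9, an anion exchanger, had 11.8 FPKM with low-dose tropifexor and 0.0509 in its vehicle, and 0.265 with OCA and 0.119 in its vehicle, by the authors' deposited tables. It rose under both drugs, 231-fold under tropifexor and 2.22-fold under OCA, a difference of 6.70 ± 0.543. Ptgds, the prostaglandin D2 synthase (chr2:25466709-25470046), rose 172-fold under tropifexor and 10.7-fold under OCA, to 669 FPKM with tropifexor and 31.6 with OCA in the authors' deposited tables, a difference of 4.01 ± 0.377. H19, an imprinted RNA of fetal liver, rose 60.0-fold under tropifexor and 2.12-fold under OCA. Meg3, another imprinted RNA, had a difference of 3.87 ± 0.666, and Lpcat4, a lysophospholipid acyltransferase, of 3.95 ± 0.448 with an OCA effect of -0.01. Mmp7, the epithelial protease matrilysin, was at 3.24 ± 0.392 and Lcn8, a lipocalin, at 3.37 ± 0.650. Cyp26a1, which breaks down retinoic acid, had a difference of 3.40 ± 0.292, but its vehicle groups differed by -1.8 and its treated livers by 1.60. Vis1, a small RNA gene, reached 3.59 ± 0.924 with neither effect called and lost the call with the wider error.

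Among the largest negative differences, Igkv3-4, an antibody gene segment, was at -6.06 ± 0.852. It had 0.266 FPKM with low-dose tropifexor and 9.97 in its vehicle, and 0.432 with OCA and 0.243 in its vehicle, by the authors' deposited tables. Only the tropifexor vehicle was high: the vehicle groups differed by 5.25 and the treated livers by -0.82. Serpina4-ps1, a pseudogene, fell 105-fold under tropifexor and 3.75-fold under OCA, with a vehicle difference of 1.10. A4gnt, a glycosyltransferase of mucins, was at -4.70 ± 0.578. Cyp2b13, Mup-ps14, RP23-421P23.3 and RP24-263G24.4, the last 3 of them pseudogenes, were also among the 15 most negative, each with neither effect called and each without a call under the wider error.

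Of the 316 genes called for both drugs, 24 (7.59%) changed in opposite directions and 292 the same way. Of the 24, 11 were down under tropifexor and up under OCA and 13 the reverse. All 24 differences were called, a count that the choice of these genes favours. Onecut1, the liver transcription factor HNF6, had 5.33 FPKM with low-dose tropifexor and 16.6 in its vehicle, and 14.1 with OCA and 2.90 in its vehicle, in the authors' deposited tables. The OCA vehicle was the low group, and the vehicle groups differed by 2.42 while the treated livers differed by -1.52. Cxcl13, a B cell attractant, rose by 1.66 under tropifexor and fell by 2.32 under OCA, with a vehicle difference of -1.62. Capn11, a calpain, and the transcript Gm16348 also had vehicle differences, of 3.10 and 1.81. Irg1, the macrophage enzyme that makes itaconate, rose by 1.16 under tropifexor and fell by 1.63 under OCA, a difference of 2.79 ± 0.359 with a vehicle difference of -0.86 that was not called. Lnpep, an insulin-regulated aminopeptidase, rose by 1.78 and fell by 0.74 in the same order. Abcc12, a transporter related to Abcc4, rose by 1.69 and fell by 1.15, and had no value between treated livers. Several of these genes were low in the authors' deposited tables. The highest of the 4 groups was at 0.687 FPKM for Capn11, 1.70 for Irg1, 2.14 for Lnpep and 1.43 for Abcc12.

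Some strong responses were close to equal under the 2 drugs. With a mean effect of at least 1 (log2), 171 genes were called the same way by both. Of these, 165 were larger under tropifexor, which the choice of genes called for both drugs can favour. At 100 of them the difference was called and at 71 it was not. Krt23, a keratin induced in injured liver, had 30.2 FPKM with low-dose tropifexor and 6.70 in its vehicle, and 21.1 with OCA and 5.03 in its vehicle, by the authors' deposited tables. It rose 4.51-fold under tropifexor and 4.20-fold under OCA, and the difference of 0.10 lay between -0.37 and 0.58. Fdps, the farnesyl diphosphate synthase of the sterol pathway, rose by 1.07 and 1.12 (log2) under tropifexor and OCA, with an interval of the difference from -0.62 to 0.53. Obp2a, a lipocalin, rose 4.48-fold under tropifexor and 4.80-fold under OCA. Creld2, a chaperone-like protein of the endoplasmic reticulum, fell by 1.24 under tropifexor and 1.09 under OCA, and the difference lay between -0.69 and 0.39. Chil1, a chitinase-like protein of activated macrophages, fell by 1.63 and 1.5 in the same order.

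The 2 higher tropifexor doses, 0.3 and 0.9 mg/kg, share the vehicle group of the low dose, so their effects are given side by side and not compared by a test. Ptgds effects were 7.43, 10.35 and 11.36 (log2) at the low, mid and high dose, against 3.42 for OCA. Slc51b effects were 5.38, 6.01 and 6.08, against 2.72 for OCA. Several genes with a positive difference at the low dose had lower effects at the higher doses. H19 was at 5.91, 2.34 and 2.19, against 1.08 for OCA, and Tff3 at 4.59, 1.20 and 0.44, against 0.40 for OCA. Mmp7 was at 3.82, -1.37 and 0.56, against 0.58 for OCA, and Abcc4 at 1.97, -1.08 and -0.32, against -0.86 for OCA. The macrophage gene Mmp12 was at 0.58, -2.79 and -2.37, against -0.58 for OCA. The median of the T cell and NK cell list was 0.30, -1.26 and -0.83 at the 3 doses, against -1.08 for OCA, and that of the inflammatory mediators 0.23, -1.40 and -1.19, against -0.29. For the cholangiocyte list the medians were 1.26, -0.46 and 0.047, against 0.37. Col1a1 fell at each dose, by 1.52, 3.03 and 2.70, with an OCA effect of 0.02. The median SE was 0.307 in the low-dose table, against 0.231 and 0.232 in the tables of the mid and high dose. Whether 1 or more mice of the low-dose group carried the pattern was not tested, since no value per mouse was used.

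**Figure D4:**
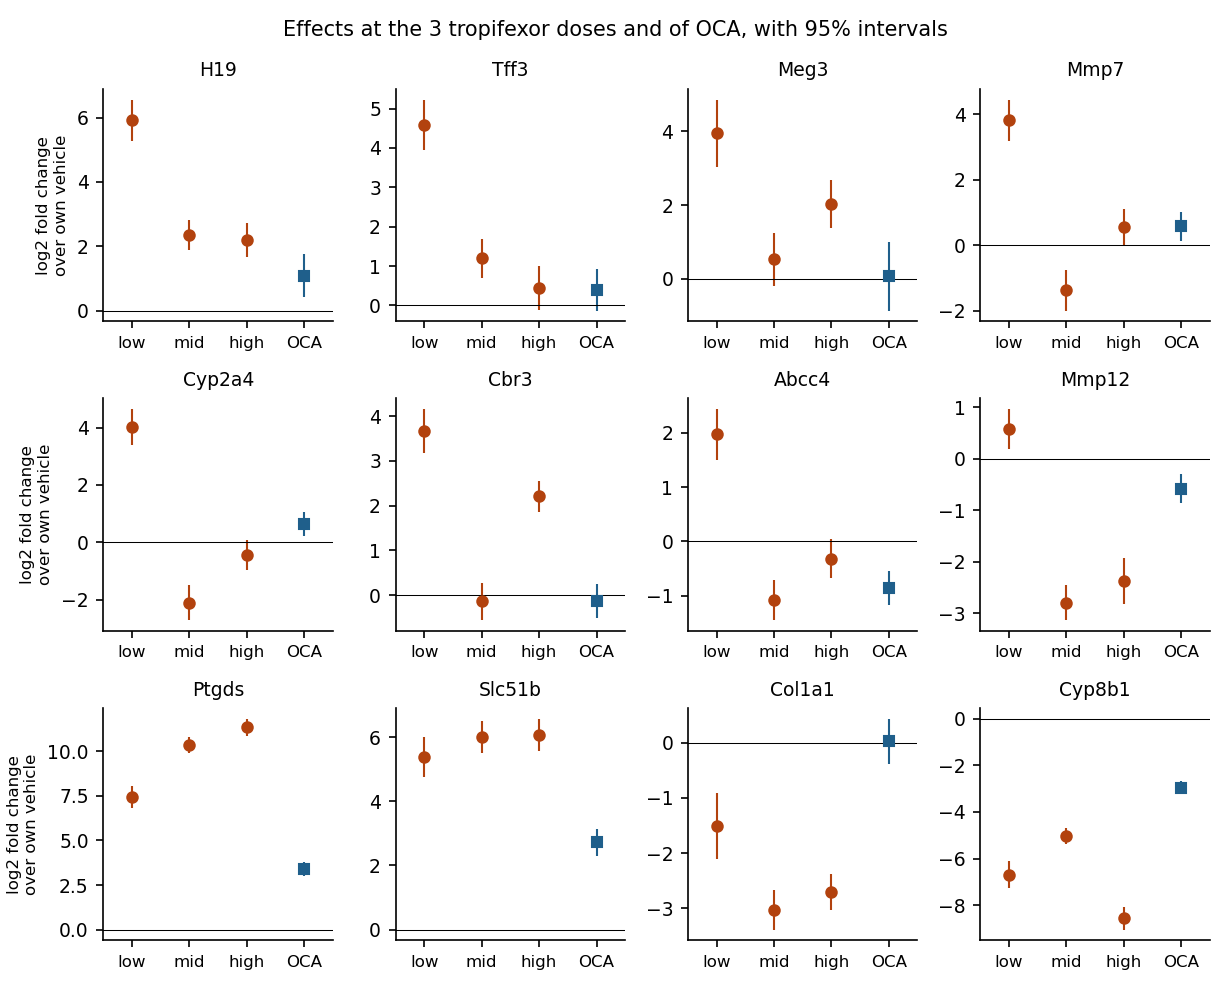
Effects of tropifexor at the low, mid and high dose (orange circles) and of OCA (blue squares) on 12 genes, as log2 of treated over own vehicle with 95% intervals; the vertical scale differs between panels. H19, Tff3, Mmp7, Cyp2a4 and Abcc4 are highest at the low dose, while Ptgds and Slc51b are at least as high at the mid and high doses.

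Because each drug has its own vehicle group, the difference of effects can come from the treated livers, from the vehicles, or from both. Each group was therefore also set against the lean control group, whose diet drew 10% of its calories from fat. Treated livers differed at 770 of 14981 genes (5.14%), 335 higher in tropifexor livers and 435 lower. The 2 vehicle groups differed at 58 of 15230 genes (0.381%), 28 higher in the tropifexor vehicle and 30 lower. Both comparisons share the lean group, so the added variances are conservative. Of the 802 differences of effects, 546 were also called between treated livers in the same direction, and 753 of the 760 with a value there had the same sign. The same treated groups enter both comparisons, and the 802 were chosen for large differences. Agreement is therefore favoured in advance and is not an independent check. Vehicle groups differed at 29 of the 802, and at 43 of 751 the vehicle difference was larger than that of treated livers. For Cyp8b1 the treated livers differed by -3.29 and the vehicles by 0.45, and for Sqle by 2.87 and 0.38. Among the genes named above whose difference of effects was called and that had a value there, the treated livers were not called at Nr0b2 (0.58 ± 0.202), Ccl5 (0.63 ± 0.343), Ccl4 (0.74 ± 0.503), Gzmb (0.97 ± 0.484), Foxa2, Pparg, Acot1, Adgre1, Jchain, S100a8, Saa2, Saa3, Cish, Capn11, Igkv3-4, Mup-ps14 and both collagens. They were called at 6 genes whose difference of effects was not: Abcb4, Cyp51, Cyp7b1, G6pc, Scd1 and Srebf1. For Srebf1 the treated livers differed by -2.20 ± 0.494 and for G6pc by -1.46 ± 0.226.

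**Figure D5:**
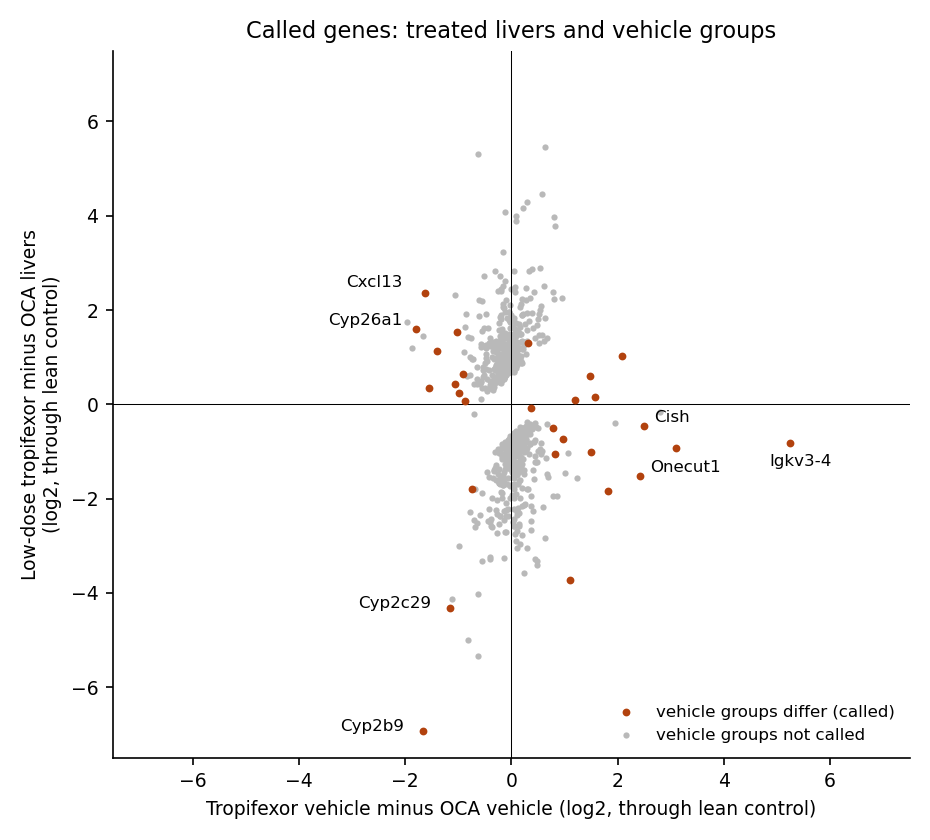
For the 751 called genes with both values, the difference of treated livers (low-dose tropifexor minus OCA, vertical) against the difference of their vehicle groups (horizontal), both in log2 through lean control. Orange marks called vehicle differences; most points lie near 0 on the horizontal axis, while Igkv3-4, Onecut1 and Cish lie far to the right.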

How the data were processed

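Liver RNA was sequenced from stranded mRNA libraries, per the labels' protocols. The submitters' processing notes name bcl2fastq, STAR 2.5.1b, Cuffnorm, Cufflinks 2.2.1, Cuffdiff and GRCm38, with no role or order. The FPKM values are the authors' deposited group values, 1 per group and table, per the file headers; tables were scaled separately. The fold change (a log2 value) and the test statistic, a score, are the authors' deposited values, as are the p-value and q-value. Library depth is unknown.

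The vehicle column of each drug table was matched to a vehicle group by its values against lean control: after a constant it deviated by a median of 0.00044 (log2) for OCA and 0.00098 for low-dose tropifexor from the group named, against 0.092 and 0.093 from the other. Effects were log2 FPKM ratios. Each standard error was the fold change over its statistic, divided by the median ratio of the normal z of the deposited p to that statistic over p from 0.0002 to 0.9, which was 2.05 for low-dose tropifexor and 2.04 for OCA. Of 15345 genes tested in both tables, 35 without a finite or matching fold change (within 0.01 log2) or with a test statistic equal to 0 were not used. The code was checked on effects simulated with these same errors, which does not check the errors. A normal test stands in because no value per mouse is given, so single genes carry intervals and calls, not p-values.

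The comparison, its genes and the 37 lists were chosen with earlier results of these data known. Named genes are the 15 largest called differences in each direction (at least 1 FPKM in a group, no Gm or Rik names), fixed anchors, the 4 largest of each list, up to 10 opposite and 10 most equal strong effects; Hmgcs1, Glul, Srxn1 and those of the last section were chosen after their values were seen. Some genes that this rule names are not reported here. Gene positions and overlaps are from GENCODE M21 (GRCm38). Alternatives were the unscaled error, median centring, a filter at 1 FPKM, pseudocounts of 0.1 and 1 FPKM, a threshold of 0.01 and lean control for both drugs; the wider error was added after seeing the data. Python 3.11.15, numpy 2.4.6, pandas 2.3.3, scipy 1.17.1 and statsmodels 0.14.6 were used.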

Additional observations from a re-analysis of the deposited data

Results flagged for a closer look

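At 13 genes named in the text the diet effect differed between the tropifexor vehicle group and the OCA vehicle group, both set against lean control, so the starting level of the 2 drug effects was not the same. The tropifexor vehicle was higher at Igkv3-4 by 5.25 (log2), at Capn11 by 3.10, at Cish by 2.5, at Onecut1 by 2.42, at Gm16348 by 1.81, at Serpina4-ps1 by 1.10, at Arid5b by 0.82 and at Saa2 by 0.79. It was lower at Cyp26a1 by -1.8, at Cyp2b9 by -1.65, at Cxcl13 by -1.62, at Cyp2c29 by -1.16 and at Saa3 by -0.86. All 13 were called by the normal test with Benjamini-Hochberg adjustment over 15230 genes, of which 0.381% were called. The part of these starting levels in the drug differences was not tested.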

How the results depend on the processing

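The 802 differences of effects became 64 with the unscaled error and 502 at an adjusted p under 0.01. They were 803 after median centring, 806 and 797 with pseudocounts of 0.1 and 1 FPKM, 673 with the FPKM filter, 770 with lean control for both drugs and 704 with the wider error, which was chosen after seeing the data. The calls of treated livers fell to 53 with the unscaled error, and those of the vehicle groups to 15 with it and to 31 with the wider error. At a deposited q under 0.01 the calls numbered 1181 in place of 1813 in the authors' deposited table of low-dose tropifexor and 368 in place of 634 in that of OCA. Of 100 called genes named in the text, 27 kept the call with the unscaled error, 86 at 0.01 and 73 of the 92 with a value through lean control. The sign turned for 4 genes that were not called: Chil1 (0.010 with a pseudocount of 1 FPKM) and, through lean control, Creld2 (0.14), Fdps (0.32) and Timp1 (0.10). The cause was not tested. No paired analysis was possible because the tables hold no value per mouse; for the same reason no replicate was left out.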

Other observations

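Other genes called in opposite directions, chosen here after their values were seen, include a steroid enzyme and genes of myeloid cells. Cyp17a1, the steroid 17-alpha-hydroxylase, had 2.99 FPKM with low-dose tropifexor and 7.17 in its vehicle, and 12.2 with OCA and 5.17 in its vehicle, in the authors' deposited tables. It fell by 1.26 (log2) under tropifexor and rose by 1.24 under OCA, a difference of -2.51 ± 0.283 (SE). Cybb, the catalytic subunit of the phagocyte oxidase, had 22.0 FPKM with low-dose tropifexor and 12.1 in its vehicle, and 8.37 with OCA and 12.2 in its vehicle, by the authors' deposited tables. Its difference was 1.41 ± 0.297. Ly6a, the stem cell antigen Sca-1, and Wfdc17, a secreted protein of activated macrophages, had differences of 1.41 ± 0.228 and 1.19 ± 0.236. Arid5b, a chromatin regulator of fat metabolism, had 4.15 FPKM with low-dose tropifexor and 8.39 in its vehicle, and 7.94 with OCA and 4.42 in its vehicle, in the authors' deposited tables. Its difference was -1.86 ± 0.220, and the vehicle groups themselves differed by 0.82. Slc2a6, a lysosomal hexose transporter of macrophages, was low, at 0.947 FPKM with low-dose tropifexor and 0.436 in its vehicle, and 0.331 with OCA and 0.692 in its vehicle, in the authors' deposited tables. Its difference was 2.18 ± 0.556 and was not called between treated livers. The vehicle difference was called at Arid5b and not at the other 5 genes. Cyp17a1 and Arid5b kept their call with the unscaled error, and Cybb, Ly6a, Wfdc17 and Slc2a6 did not.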
